A study of Mus musculus with 3 samples.

Results

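Cytosolic ribosomal protein genes carried Nkx2.2 regions mostly at their own starts. Members were taken by symbol from the genes that the deposited table assigns to its regions: Rpl or Rps followed by a digit, or Rplp, without the Rps6k kinase genes. The rule gave 71 of the 14473 genes with a region, and 111 of the 37271 regions. Of these members 67 encode proteins of the cytosolic ribosome on a roster of 76. The other 4 are the related genes Rpl22l1, Rpl7l1 and Rps27l, and Rps19bp1, whose product binds a ribosomal protein. By name, 39 members belong to the large subunit, 30 to the small subunit and 2, Rplp1 and Rplp2, to the stalk of the large subunit.

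Nkx2.2, a homeodomain transcription factor of the oligodendrocyte lineage, was mapped by chromatin immunoprecipitation and sequencing in cultured cells taken on postnatal day 7 from C57BL/6 cortex. The OPC library came from dividing oligodendrocyte progenitor cells, selected with an antibody to PDGFRA and grown with 10 ng/mL of PDGF-AA, 1 ng/mL of NT-3 and 10 ng/mL of CNTF. The OL library came from postmitotic oligodendrocytes that were made from such cells in culture by taking away PDGF-AA and giving 40 ng/mL of T3, a thyroid hormone, over 48 h. Cells for both libraries were isolated and cultured together. Each state has 1 library, so a difference between OPC and OL has no replicate check and no test was run. Another library, of input DNA, was not analysed here, so signal was not set against a background. The files hold no expression values, and the labelled cell states were not checked against marker genes.

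A ribosome joins a small subunit, which reads the mRNA, to a large subunit, which forms peptide bonds, and each ribosomal protein is needed in about equal amounts. Mammalian ribosomal protein genes are short, are transcribed in nearly all cells, and usually start within a CpG island at a C followed by a run of pyrimidines. This 5′ terminal oligopyrimidine (TOP) tract lets mTOR signalling set the translation of their mRNAs. In the oligodendrocyte lineage translation supplies the proteins of the myelin sheath.

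The strongest start regions of the members show what the bound promoters look like. RefSeq sequences (build GRCm38.p6) were matched by symbol and not by coordinates, since the regions are on mm9. The first start listed for a gene was used. The windows below run from 130 bases before the start to 20 bases from it. They belong to the 6 roster members with the strongest start region among those whose sequence could be shown. Rplp0, listed as Arbp, is on the roster but outside the symbol rule and was left out. Its start region was stronger than all of these but that of Rps21. Capitals mark matches, on either strand, to the ETS factor core CCGGAAG, the YY1 core AANATGG, the Sp1 core GGGCGG, the TATA box TATAAA or the Nkx2 core TNAAGTG. The windows are chr2:180257249-180257398 (+) for Rps21, chr5:107900398-107900547 (+) for Rpl5, chr11:101442115-101442264 (+) for Rpl27, chr14:24490548-24490697 (+) for Rps24, chr7:45128726-45128875 (-) for Rpl13a and chr4:136053374-136053523 (-) for Rpl11.
Rps21: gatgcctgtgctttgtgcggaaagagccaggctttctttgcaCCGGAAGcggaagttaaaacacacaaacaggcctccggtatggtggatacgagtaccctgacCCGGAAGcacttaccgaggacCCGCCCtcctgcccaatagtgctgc
Rpl5: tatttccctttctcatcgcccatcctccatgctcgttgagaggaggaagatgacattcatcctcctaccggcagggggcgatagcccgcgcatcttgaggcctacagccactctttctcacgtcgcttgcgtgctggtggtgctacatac
Rpl27: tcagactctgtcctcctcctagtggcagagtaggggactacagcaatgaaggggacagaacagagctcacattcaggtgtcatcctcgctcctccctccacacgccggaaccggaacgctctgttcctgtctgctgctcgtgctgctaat
Rps24: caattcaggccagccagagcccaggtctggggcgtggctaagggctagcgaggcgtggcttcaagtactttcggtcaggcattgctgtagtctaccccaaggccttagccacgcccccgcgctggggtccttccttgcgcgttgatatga
Rpl13a: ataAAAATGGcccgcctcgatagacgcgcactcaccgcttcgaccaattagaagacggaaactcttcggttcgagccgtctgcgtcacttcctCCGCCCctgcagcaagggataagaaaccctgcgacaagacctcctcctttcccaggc
Rpl11: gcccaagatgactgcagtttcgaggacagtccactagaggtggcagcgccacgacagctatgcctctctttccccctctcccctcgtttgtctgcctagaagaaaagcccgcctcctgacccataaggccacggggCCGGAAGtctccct
Rps21 shows 2 ETS cores, which begin 88 and 26 bases before the start. Rpl11 shows 1 ETS core and Rpl13a a YY1 core, while Rpl5, Rpl27 and Rps24 hold none of the 5 motifs in these windows. No window holds the Nkx2 core.

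Over the roster, the ETS core stood in more promoters than the Nkx2 core did. A RefSeq promoter of 300 bases (250 before the start and 50 from it) was found for 56 of the 76 roster genes. The ETS core stood in 22 of them (39.3%), against 9.12% of all 27025 RefSeq promoters and 19.6% of 7187 other protein-coding genes with a CpG-rich promoter. The YY1 core stood in 17 (30.4%, 95% interval 18.8 to 44.1%), against 16.3% of all promoters and 13.0% of the CpG-rich ones. Of the 56 roster promoters 33 were CpG-rich and 23 CpG-poor by the rule given below, so the CpG-rich set is not matched to them. For 3 motifs the direction turned with the comparison. The Sp1 core stood in 33 (58.9%, 45 to 71.9%), above the 35.9% of all promoters and below the 79.8% of the CpG-rich ones. The TATA box stood in 5 (8.93%, 2.96 to 19.6%), against 14.2% of all promoters and 3.99% of the CpG-rich ones. The Nkx2 core also stood in 5 (8.93%, 2.96 to 19.6%), against 11.5% and 5.83%, both within its interval. These 5 were Rpl34, Rpl37a, Rplp2, Rps15a and Rps3a, the last listed as Rps3a1 in RefSeq. Matches of different motifs were counted separately and can overlap. Among the 43 of these genes with a region at the start 14 held the ETS core (32.6%, 19.1 to 48.5%) and 4 the Nkx2 core (9.30%). Among the other 13 genes 8 held the ETS core (61.5%, 31.6 to 86.1%) and 1 the Nkx2 core (7.69%). The intervals for the ETS core overlap, and it was not more frequent among the genes with a region. A match is a run of letters and not a measured site.

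A strict TOP tract, a C at the listed start with at least 4 pyrimidines after it, was seen in 12 of the 56 (21.4%), against 2.49% of all promoters. Starts listed a few bases off miss it, and with a shift of up to 5 bases either way the counts were 26 of 56 (46.4%) and 18.5% of all promoters. Below are the first 15 bases from the start for 2 members with a start region, Rpl15 at chr14:18270972-18270986 (-) and Rps6 at chr4:86857353-86857367 (-), and for 2 roster genes without one, Rpl28 at chr7:4792965-4792979 (+) and Rpl35 at chr2:39005117-39005131 (-), on GRCm38.p6. Capitals mark the tract.
Rpl15: CTTCCTTTCCTCTgg
Rps6: CTCTTTTTCgtgacg
Rpl28: CTCTTTCCgtctccg
Rpl35: CTCTTTCTCTCgaac
Genes with a tract of this kind were found with and without a start region. Of the 12, 7 had one and 5 did not. With the shift allowed, the tract stood in 16 of the 43 with a region (37.2%, 23.0 to 53.3%) and in 10 of the 13 without (76.9%, 46.2 to 95%).

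Most roster genes had an Nkx2.2 region at the start. A region counts as a start or promoter region here when its middle lies within 1 kb of the deposited gene start. Of the 76 roster genes 60 had one, or 78.9% (exact Clopper-Pearson 95% interval 68.1 to 87.5%, for counting error over genes only). The same held for 29.5% of the 21896 protein-coding genes in RefSeq. Counted over genes with any region, 62 of the 71 members had one at the start (87.3%), against 48.9% of all 14473. All 60 were called in OL, a share of 78.9% against 27.8% of protein-coding genes, and 27 were called in OPC, 35.5% (24.9 to 47.3%) against 12.6%. Both subunits were covered: 33 of 43 genes of the large subunit, 25 of 30 of the small subunit and 2 of 3 stalk genes had a start region.

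**Figure D1:**
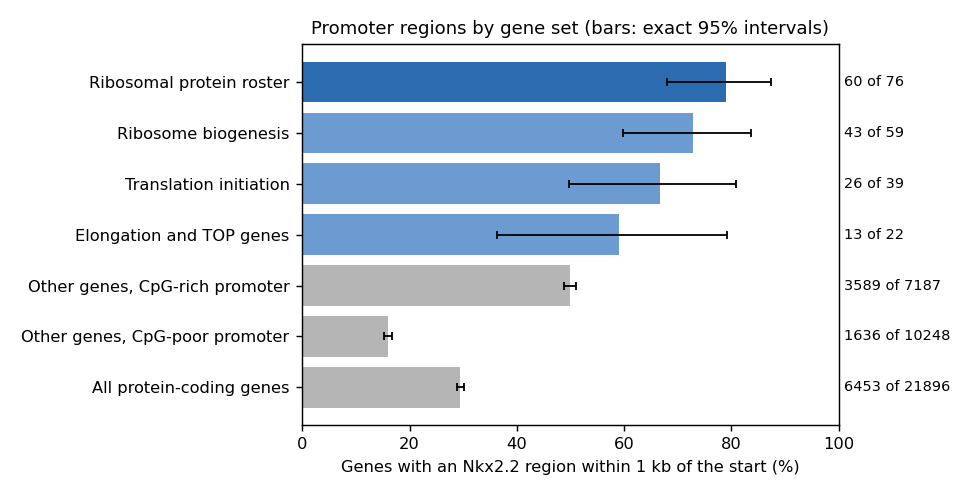
Share of genes with an Nkx2.2 region within 1 kb of the start (x axis, percent), by gene set (y axis), with exact 95% intervals as error bars and counts at the right. The roster of ribosomal protein genes stands at 78.9%, other genes with a CpG-rich promoter at 49.9% and all protein-coding genes at 29.5%.

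The roster's share was above that of other genes with promoters of like base composition. A promoter was called CpG-rich where its 300 bases had a GC content of at least 55% and an observed to expected CpG ratio of at least 0.6. Of the other protein-coding genes with such a promoter 49.9% (48.8 to 51.1%) had a start region, against 23 of 33 roster genes (69.7%, 51.3 to 84.4%). Of the other genes with a CpG-poor promoter 16.0% had one, against 20 of 23 roster genes (87.0%, 66.4 to 97.2%). This class comes from 300 bases and differs from the deposited CpG island count. The part of expression level in these shares was not tested, as the files hold none.

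Of the roster 8 genes had no region in the table: Rpl12, Rpl26, Rpl27a, Rpl28, Rpl36a and Rpl39 of the large subunit, and Rps2 and Rps4x of the small subunit. A further 8 had regions only away from the start, among them Rpl8, Rpl19, Rpl35, Rpl38, Rplp2 and Rps27. Rpl36a, Rpl39 and Rps4x lie on the X chromosome, as does Rpl10, which had 2 start regions. Only 1 of 4 X-linked roster genes thus had a start region (25%, 0.631 to 80.6%), against 59 of 72 autosomal ones (81.9%, 71.1 to 90.0%). These intervals overlap. Over all protein-coding genes the shares were 13.7% (11.6 to 16.0%) on X and 30.6% on the autosomes, so X-linked genes in general had fewer.

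The 64 start regions of the 62 members that had one covered the start more often than those of other genes did. Distances run from the gene start to the middle of the region, negative upstream. They lay between -816 and 142 bp, with a median of -94 bp, against a median of -63 bp for the other regions. The region covered the start itself in 60 of 64 cases (93.8%, 84.8 to 98.3%), against 81.9% (80.9 to 82.9%) of 5432 other start regions with a CpG island. The middle was upstream in 50 (78.1%, 66.0 to 87.5%), against 65.6% (64.3 to 66.9%). None of the 64 had its middle over 200 bp into the gene (upper bound 5.6%), while 13.4% (12.5 to 14.3%) of the other regions did. Ribosomal protein genes are short and the comparison was not matched for gene length. The members nearest the edge of the window were Rpl35a on the inside, at -816 bp with an average signal of 4.57 in OPC and 4.29 in OL, and Rpl5 on the outside, with a second region at 1124 bp (4.30 and 2.67).

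**Figure D2:**
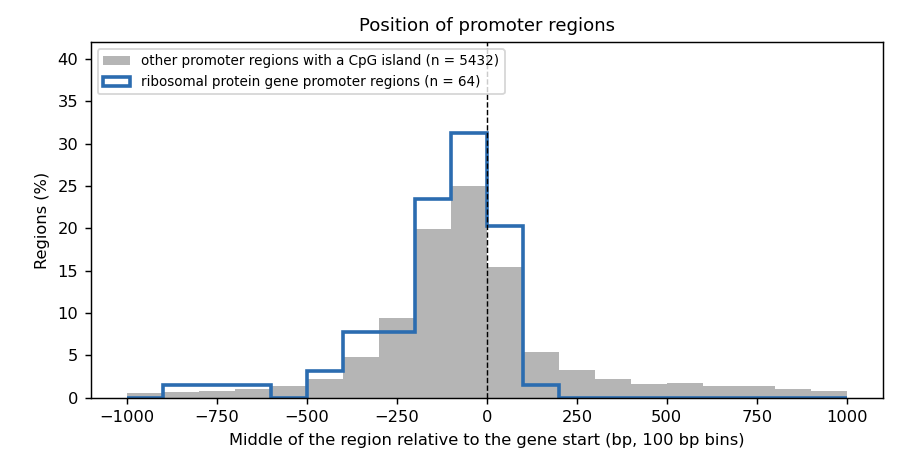
Position of start regions: distance from the gene start to the middle of the region (x axis, bp, negative upstream) against the share of regions in each 100 bp bin (y axis, percent). The 64 regions of ribosomal protein genes (blue outline) lie between -816 and 142 bp, while 13.4% of the 5432 other CpG island start regions (grey) lie beyond 200 bp downstream.

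Nearly all of these start regions held a CpG island, 60 of 64 (93.8%, 84.8 to 98.3%), against 83.2% (82.3 to 84.1%) of 6527 other start regions. The 4 without one lay at Rpl4, Rpl7l1, Rpl10 and Rps29, and the last pair had a second start region with an island. Over all member regions 83 of 111 (74.8%, 65.6 to 82.5%) held an island, against 18% of all regions of the table, of which 17.7% lie at a start, while 57.7% of member regions lie at the member's own start. In 12 cases the start region also lay within 1 kb of the start of another gene, such as Nkiras1 beside Rpl15, Sphk2 beside Rpl18, Surf5 beside Rpl7a and Trappc4 beside Rps25. Such a region cannot be given to either gene. The 52 regions with no other start nearby had median average signals of 3.74 in OPC and 6.23 in OL, and the 12 shared ones 4.17 and 5.15.

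Median signal at the member starts was slightly above that of other CpG island promoters in both libraries. Average signal is the mean of the authors' signal over a region, in units whose scaling between libraries is not given in the sources used here. Its median over the 64 regions was 3.79 in OPC and 5.94 in OL, against 3.50 and 5.35 over the 5432 other CpG island start regions. The quartiles of the members were 2.77 and 4.81 in OPC and 4.85 and 7.89 in OL, while those of the others ran from 2.50 to 4.50 and from 4.41 to 6.70. An average signal of 10 or more in OL was seen at 4 of 64 member regions (6.25%) and at 5.23% of the others.

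Rps21 stood apart from every other member. Its product is a protein of the small subunit. The region at chr2:179991216-179992298 (mm9, CpG island) has its middle at -327 bp and covers the start. Its average signal was 23.3 in OPC and 28.1 in OL, and the highest signal inside it was 96 in OPC and 145 in OL. Those highest values ranked first in both libraries among all 6614 regions within 1 kb of any gene start, while the average signal ranked second in OPC and sixth in OL. With Rps21 left out, no member start region had a highest signal above 21 in OPC or 36 in OL, nor an average above 7.55 or 11. Cables2 is assigned to the same region, but its start is not within 1 kb.

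**Figure D3:**
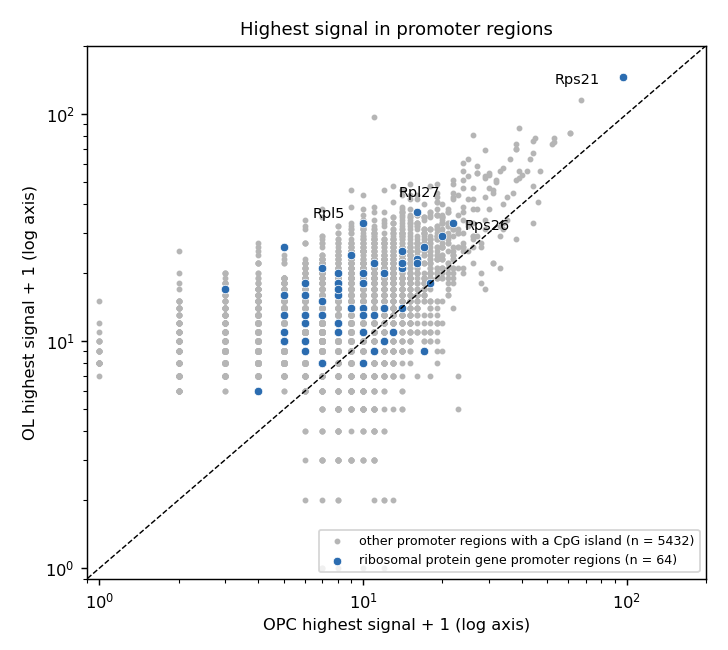
Highest signal within each start region in OPC (x axis) and OL (y axis), as signal + 1 on log axes, with the diagonal dashed. Rps21, at 96 and 145, lies beyond every one of the 5432 other CpG island start regions in both libraries (grey), while the other ribosomal protein gene regions (blue) lie within their cloud.

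Below Rps21 came a group with OL signals near 10. Rpl5, whose product carries 5S rRNA into the large subunit and binds Mdm2, had signals of 3.35 and 11 (OPC first, here and in the pairs that follow) in a region centred 3 bp into the gene (chr5:108329304-108329921). Rpl27 had 6.60 and 10.96 (chr11:101303282-101304092). Rps24, one of the genes mutated in Diamond-Blackfan anaemia, had 3.81 and 9.88. These 3 were close in OL, and in OPC Rpl27 was the highest and Rpl5 the lowest. Rpl11, which acts with Rpl5 in the 5S particle, had 4.71 and 8.78 and no OPC call. The related gene Rps27l had 5.75 and 9.59 at its start, whereas Rps27 itself had no start region. Rpl22l1 had 5.0 and 5.27 beside 4.88 and 8.75 at Rpl22, and Rpl7l1 had 4.33 and 7.86 beside 3.78 and 5.46 at Rpl7.

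Some other start regions called in both libraries, though not all, had less difference between OPC and OL. Rpl13a had 7.55 and 9.44, Rps26 6.93 and 8.67, Rpl41 6.53 and 8.45, and Rpl37 6.40 and 7.97. The region of Rpl13a (chr7:52383974-52384905) is also assigned to snoRNA genes listed there. At the low end Rps20 had 3.52 and 3.65, Rps28 2.17 and 3.67, and Rpl37a 2.50 and 4.15. Rps6, the protein that S6 kinases phosphorylate, had 2.74 and 5.65, Rps19 4.18 and 6.25, Rps14 2.87 and 4.74, and Rps27a, made as a fusion with ubiquitin, 2.55 and 4.35. Apart from Rps21, OL values at the starts thus spanned 3.65 to 11 and OPC values 1.5 to 7.55.

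**Figure D4:**
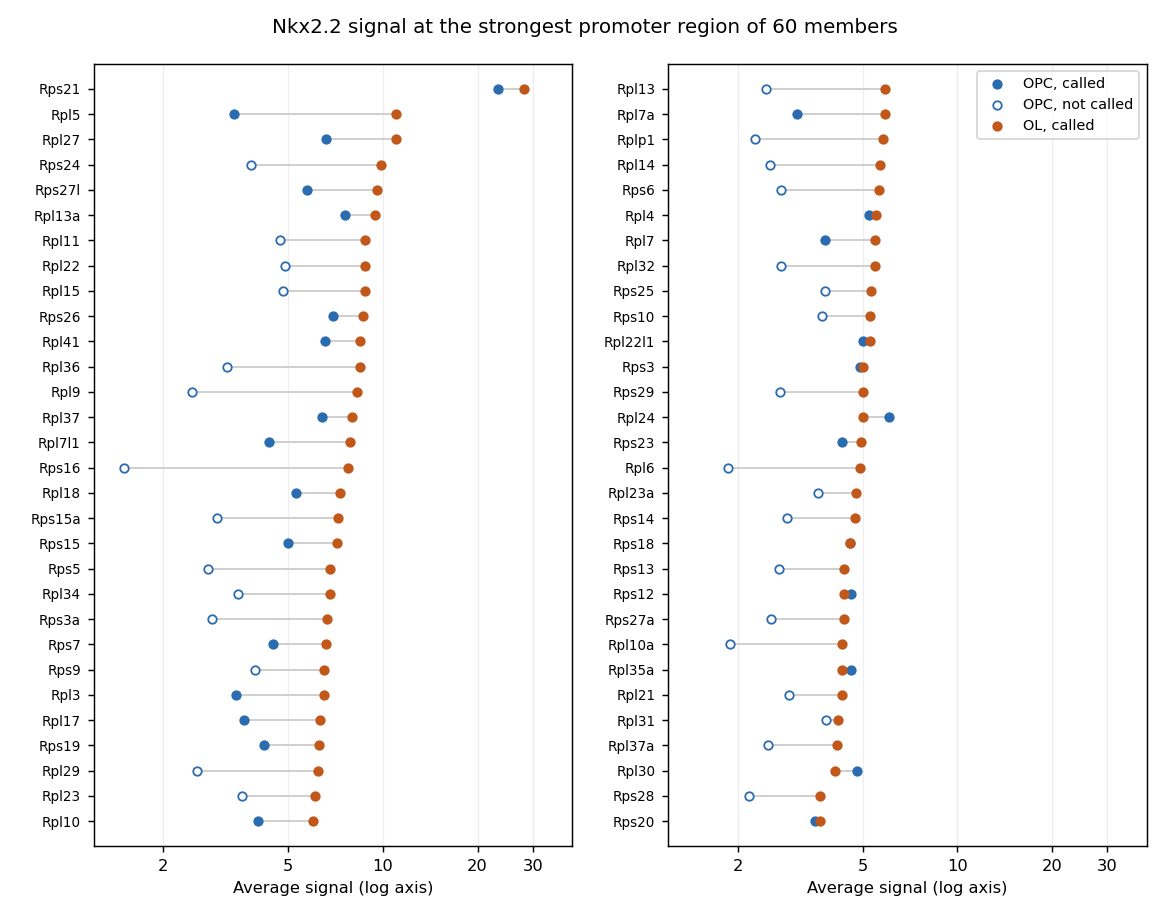
Average signal (x axis, log scale) in OPC (blue) and OL (orange) at the strongest start region of 60 of the 62 members that have one, ordered by OL signal. Filled points are called intervals and open points are not called. All OL points are called, and Rps21 at 23.3 and 28.1 lies apart from the rest, whose OL signal reaches 11.

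More members had a call in OL than in OPC, as was the case for genes in general. An OPC call was held by 41 of 71 members (57.7%), against 57.3% of all genes with a region, and an OL call by 69 (97.2%), against 94.8%. These shares are near those of all genes. All 64 start regions were called in OL (at least 94.4% by the exact interval), as were 94.5% of other CpG island start regions and 85.3% of all regions. In OPC 30 were called (46.9%, 34.3 to 59.8%), against 39.6% and 38.6%. The 30 regions called in both libraries had medians of 4.70 in OPC and 6.28 in OL. The 34 called in OL only had 2.82 and 5.72. The OPC call made this split, so the gap in OPC follows from it. Called in both libraries were 43 of all 111 member regions (38.7%, 29.6 to 48.5%), against 23.8% of all regions and 34.2% of other CpG island start regions.

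The median ratio of OL to OPC signal at these genes was near that of all genes. A large ratio was less frequent among members than among all genes, but about as frequent at their starts as at other CpG island promoters. The ratio is given as log2((OL + 1) / (OPC + 1)) of the average signal, so weak regions are understated, and a gene is represented by its highest region. Members had a median of 1 region and all genes a median of 2, and the comparison was not matched for this. The median over the 71 members was 0.63, against 0.73 over all 14473 genes. In 16 members (22.5%) the ratio was at least 1, against 34.7% of all genes, and in 3 (4.23%) it was -1 or less, against 4.19%. Over all 111 member regions 22 (19.8%, 12.9 to 28.5%) were at 1 or more and 3 at -1 or less, against 37.5% and 7.03% of all regions. At start regions the median was 0.60 for members and 0.61 for other CpG island promoters, and 10 of 64 (15.6%, 7.76 to 26.9%) were at 1 or more, against 19.2%. None of the 64 was at -1 or less, against 0.792%. The direction of such medians rests on the scaling of the libraries: with the median of all regions, 0.74, set to 0, the members' median became -0.11, with 28 members above 0 and 43 below.

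**Figure D5:**
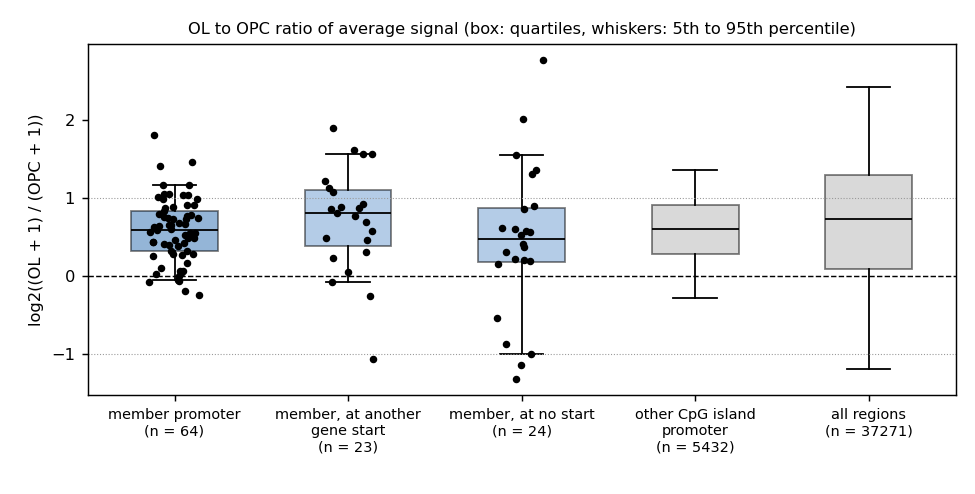
log2 ratio of OL to OPC average signal (y axis) for member regions at the own start, at the start of another gene and at no start, for other CpG island start regions and for all regions. Boxes are quartiles with the median, whiskers the 5th to 95th percentile, and points single member regions. The member start regions have a median of 0.60 and lie between -0.24 and 1.81.

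The largest ratios came from several kinds of region. At the start of Rps16 OPC signal was 1.5 and OL signal 7.75, a log2 ratio of 1.81, and Rpl5 the ratio of 1.46 that follows from the values above. Rpl9 had 2.47 and 8.24 at its start (1.41), in a region also at the start of Lias. The ratio of Rpl24, 2.02, belongs to a region 10709 bp from its start with 1.00 in OPC and 7.13 in OL, while at the start itself Rpl24 had 6.07 in OPC and 5.0 in OL. That of Rpl41, 1.91, belongs to a region at the start of Zc3h10 (1.58 and 8.67), and that of Rps19bp1, 1.56, to one at the start of Atf4 (1.67 and 6.88). Start regions with less OL than OPC signal numbered 5 of 64 (7.81%, 2.58 to 17.3%), against 11.5% of other CpG island start regions. This count moved with the scaling, to 12 (against 22.8%) with regions called in both libraries set to 0 and to 41 (against 61.6%) with all regions set to 0. As deposited, they were those of Rpl24 and Rpl30 (4.81 and 4.09), Rpl35a (4.57 and 4.29), Rps12 (4.60 and 4.35) and the start-covering region of Rpl10 (3.95 and 3.77). Rps18 had 4.55 and 4.56. These differences are small and, with 1 library each, cannot be told from the spread between libraries.

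Away from their own start the members had 47 regions, and about as many lay at a neighbour's start as did not. At the start of another gene lay 23, of which 20 held a CpG island, and the medians were 2.53 for OPC and 5.29 for OL. They include Nudt3 beside Rps10, Atf4 beside Rps19bp1, Polr3a beside Rps24, Surf6 beside Rpl7a, Cacnb1 beside Rpl19, Arpc5l beside Rpl35, Zbtb11 beside Rpl24 and Pnpla2 beside Rplp2. The other 24 were at no start, and 3 of them held an island. Their medians were 4.21 and 5.40, and 13 of the 24 were called in OPC, against 5 of the 23. In OPC 38.1% of other regions away from a start and 39.6% of other CpG island start regions were called. Assignment to a ribosomal protein gene here means only that the gene is near.

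The distant regions highest in OL lay at no start. One 8725 bp downstream of the start of Rps3, a protein at the mRNA entry site of the small subunit, had 13.6 in OPC and 17.1 in OL (chr7:106623148-106623840), while the region on the start had 4.89 and 5.0. A region 8443 bp downstream of Rps10, also assigned to Nudt3, had 10.4 and 12.2 (chr17:27763335-27764154), and the start of Rps10 3.70 and 5.29. A region at -4772 bp from Rpl13, also assigned to Spg7, had 8.21 and 13.0, and the start of Rpl13 2.47 and 5.88. A region of Rpl38 that the table places in the gene, 9394 bp from the start and also assigned to Ttyh2, had 8.18 and 9.54. A region 13704 bp from Rps15a had 4.38 and 9.0. In the first 3 cases the distant region was stronger than the start in both libraries.

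Calls in OPC only were seen at 5 of the 111 regions (4.50%, 1.48 to 10.2%), against 14.7% of all regions. All 5 lay away from the member's start, where they were 5 of 47 (10.6%, 3.55 to 23.1%). Of other regions away from any start 16.4% had such a call. These sets are unlike, since 23 of the 47 lay at the start of another gene. Of the 24 at no start 13 were called in OPC, 9 of them in both libraries. Of the 23 at another gene's start 5 were called in OPC, 4 of them in both. None of the 64 start regions had such a call (upper bound 5.6%), against 5.47% of other CpG island start regions. None of the 5 held a CpG island. Rpl8 had 10.3 in OPC and 4.40 in OL at -4151 bp, in a region that is also at the start of Commd5 (log2 ratio -1.07). Others of this kind were those of Rps10 at -7458 bp (4.74 and 2.14), Rpl41 at 2478 bp downstream (4.42 and 1.71) and Rpl5 at 1124 bp (4.30 and 2.67). Rps14 had 9.29 and 3.67 at 8534 bp downstream, a region called in both libraries (log2 ratio -1.14).

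Of the 71 members 43 had a single region, 17 had 2, 9 had 3 and 2 had 4. Rpl35 had 4, none of them at its start, with OL signals between 3.53 and 7.47. Rps10 also had 4. The 9 with 3 regions were Rpl14, Rpl19, Rpl23a, Rpl24, Rpl41, Rps14, Rps15, Rps15a and Rps29. Those of Rps15 had 5.0 and 7.14 at the start, 4.13 and 4.71 at 6671 bp and 6.50 and 5.29 at 10252 bp. Rpl14 had the only member region listed at 0, with 0 in OPC and 5.82 in OL at -4090 bp. The members with 2 regions were Rpl3, Rpl4, Rpl5, Rpl7, Rpl7a, Rpl10, Rpl13, Rpl18, Rpl21, Rpl35a, Rpl36, Rps3, Rps12, Rps19bp1, Rps24, Rps25 and Rps28. Rpl3, which lies near the peptidyl transferase centre, had 3.40 and 6.47 at its start and 5.17 and 8.13 at -5557 bp. Rpl36 had 3.18 and 8.43 at its start and 5.84 and 5.50 at -3542 bp.

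Ribosomal proteins whose symbols escape the rule also had start regions, 5 of 5 (47.8 to 100%), against 29.5% of protein-coding genes. Arbp, the older name of Rplp0, encodes the base of the stalk and had 9.41 in OPC and 16.4 in OL, with highest signals of 23 and 55, 18 bp into the gene (chr5:116009173-116009912). That is above the average signal of every member start except Rps21 in both libraries. Rpsa had 3.11 and 7.79, Gnb2l1 (Rack1) 3.23 and 7.81, and Fau, a fusion of a ubiquitin-like protein with a small subunit protein, 2.79 and 4.96. At their starts all 5 were called in OL and 1, Arbp, in OPC, against 94.5% and 39.6% of other CpG island start regions. Arbp, as Rplp0, is already counted among the 60 roster genes with a start region.

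Other genes of protein synthesis also had start regions more often than the 29.5% of protein-coding genes. Against the 49.9% of other genes with a CpG-rich promoter, the interval of the ribosome biogenesis list lay above that share, and those of the initiation, elongation and regulator lists included it. For the log2 ratios that follow, all genes with a region had a median of 0.73, with 34.7% at 1 or more and 4.19% at -1 or less. Ribosome biogenesis genes had them at 43 of 59 (72.9%, 59.7 to 83.6%), with a median log2 ratio of 0.84 over the 53 with any region, 15 of them at 1 or more and 0 at -1 or less. In that list the highest signals were in Nol10 (1.82 in OPC and 16.4 in OL, 78435 bp from the start) and D13Wsu177e (5.88 and 11.3, 7856 bp from the start). Next came Nola2, a gene for a protein of H/ACA particles (8.25 and 10.8, at the start). Initiation factor genes had start regions at 26 of 39 (66.7%, 49.8 to 80.9%). Over the 29 with any region the median ratio was 0.69, with 6 at 1 or more and 0 at -1 or less. The highest were Larp1, a protein that binds TOP mRNAs (2.90 and 14.8, 46730 bp from the start), Eif3s2 (6.64 and 12, at the start) and Eif2b2 (6.00 and 9.75, at the start). Elongation factors and other genes with TOP mRNAs had start regions at 13 of 22 (59.1%, 36.4 to 79.3%). Over the 18 with any region the median ratio was 0.80, with 6 at 1 or more and 0 at -1 or less. Eef1d had 7.19 and 15.1, Eif3s3 5.36 and 12.2 and Eef2 5.26 and 10.5, all away from their starts. Regulators of these genes, among them mTOR pathway genes, had start regions at 12 of 16 (75%, 47.6 to 92.7%). Over the 13 with any region the median ratio was 1.00, with 7 at 1 or more and 1 at -1 or less. Rps6kb2, the gene of a kinase of Rps6, had 9.21 in OPC and 25.3 in OL at -165 bp. Away from their starts, Mxi1 had 5.33 and 11.7 at 3797 bp, and Rptor, listed as 4932417H02Rik, 10.9 and 3.61 at 105671 bp. The intervals of these lists overlap that of the ribosomal protein roster.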

How the data were processed

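Nkx2.2 chromatin immunoprecipitation was measured in 1 OPC and 1 OL library of 1.5e7 cells each, per the labels. The submitters' processing notes name mm9, BWA and MACS 1.4.2. Per the file headers, the authors merged the called intervals of both libraries into regions and give for each the average and the highest signal, a call per library, counts of CpG islands, and assigned genes with their distance to the region. Calls were made per library. How signal was scaled, whether the input was used, which threshold set the calls and how reads matching several places were treated are not stated in the labels or headers. RefSeq lists 303 pseudogenes under the same symbols, so reads in exons may be shared between copies. Depth is unknown, since signal gives no read counts.

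Members were found by symbol, and all 71 matched RefSeq (GRCm38.p6), as did 13005 of the 14473 gene names. Log2 ratios used a pseudocount of 1. No filter on low signal was applied. With 1 library per state no test was run, and intervals of shares are exact Clopper-Pearson 95% intervals for counting error. Those of medians are 95% intervals from the ranked values, over regions or genes only. The members and lists were chosen with earlier results of these data known. Named were the 8 members highest in each library, the 5 largest and 5 smallest ratios, the 8 strongest members away from the start, those with 2 or more regions or a value of 0, and the 3 strongest genes of each other list. Further members were named, after their values were seen, to show the range or a role. A few members that the rule names are not reported here. The scripts were tested on simulated data. Python 3.11.15, pandas 2.3.3 and SciPy 1.17.1 were used.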

Additional observations from a re-analysis of the deposited data

How the results depend on the processing

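Of 60 values recomputed under alternatives, 38 stayed within their interval or within 1.5 times the count, 21 moved and 1 changed sign. The sign change was the median log2 ratio of the members, 0.63, which became -0.11 with the median of all regions set to 0. It was 0.38 with regions called in both libraries set to 0 (a shift of 0.24) and 0.51 over the 12 members with a region assigned to no other gene. Members at a ratio of 1 or more, 16, became 7 and 3 under these scalings, 9 with a pseudocount of 2, 32 with the highest signal, 10 with the mean over regions and 0 over those 12 members. Over all genes the share at 1 or more was 24.1% and 11.9% under the scalings and 49.6% with the highest signal. For the pseudocount of 2, the mean over regions and the 12 members, no share over all genes was computed, at 1 or at -1. Start regions with less OL than OPC signal, 5, became 12 and 41 under the scalings, settings chosen after seeing the data. Members at -1 or less, 3, became 1 with a pseudocount of 2 and 1 over the 12.

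A stricter setting kept only calls at or above the median signal of each library's called regions. OPC calls then fell from 41 members to 22, and member regions called in both from 38.7% to 15.3%. This cut lowers such counts for all genes by its making. The same shares over all genes or regions were not computed, so the fall is no trait of the members. The share of roster genes with a start region became 51.3% against 15.8% of protein-coding genes, a setting chosen after seeing the data. Among regions assigned to no other gene, 5 members had an OPC call and 12 an OL call, since only 12 have such a region, and the median OL signal at starts was 5.29. The CpG island share was 93.8% at starts. On the highest signal the medians at starts were 8 in OPC and 13 in OL, another scale. No paired analysis was possible because each state has 1 library. Depth limits were not assessed, since the signal gives no read counts.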
